A study of Mus musculus with 8 samples.

Results

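The genes described here are 9 members of the interleukin-6 (IL-6) family: the ligands Il6, Il11, Lif, Osm and Clcf1, the shared signalling receptor Il6st (gp130), and the receptor chains Il6ra, Il11ra1 and Osmr. They were taken by gene symbol, and all 9 were found among the 25239 symbols of the deposited count table. The list was drawn up with earlier results of these data known, among them a fall of Il11, so the genotype differences of the members are given as a description and support nothing by themselves. Of the 9, 8 had enough reads to enter the fit over all genes, which took in 12837 genes, and Il6 did not.

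The cells came from the calvaria (the skull cap) of mice and were labelled as primary osteoblasts, with 4 libraries from animals labelled WT (wild type, called control here) and 4 labelled KO(OSX-SphK2), a knockout of Sphk2 driven by Osx. Sphk2 encodes sphingosine kinase 2. Osx, also called Sp7, is active in cells committed to making bone, so a deletion driven by it is directed at those cells and not at blood-derived ones. The controls were littermates. The title of the series names neutrophil development as the process under study. Neither age, sex nor the number of animals behind a library was given in the sources used here, so p-values measure the spread between libraries, which may be partly technical.

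Totals ran from 14347495 to 19065421 counts per library. Levels are given as CPM, the usual depth-normalised count, after TMM scaling for library composition. Sphk2 stood at 64.2 to 82.5 CPM in the libraries numbered 1 to 3 of either group and at 133.8 CPM in control 4 and 131.1 CPM in the knockout numbered 4, so its count does not check the genotype labels, and "knockout" below means the label. The cells were labelled osteoblasts, whose 12 markers together reached 3566 to 14220 CPM, but the 15 markers of macrophages and monocytes together reached 29840 to 50050 CPM. Neutrophil genes, 8 in all, together reached at most 3.64 CPM. Endothelial markers reached 7.39 to 33.3 CPM (Tek at 0) and lymphocyte markers 0.641 to 26.2 CPM (Cd3d at 0). Mast cell and megakaryocyte markers reached 92.0 to 508 CPM (Cpa3, Mcpt4, Tpsb2 and Fcer1a at 0). Gp9 in that list reached at most 0.4445 CPM, so the sum came almost wholly from Pf4 and Itga2b. Of these lists the T-cell and myeloid gene Cd4 was called higher in the knockouts numbered 1 to 3, where 7.78% of all genes were. The libraries numbered 4 of both groups stood apart on the first principal component, which held 73.7% of the variance, and carried 10100 and 6659 CPM of 9 osteoclast markers against 141 to 234 CPM elsewhere. Results are therefore given for all 8 libraries and for the 6 numbered 1 to 3. The 10 fibroblast and stromal markers summed to 3070 and 2870 CPM in the libraries numbered 4, to 12410, 17100 and 12990 CPM in controls 1 to 3 and to 8278, 10850 and 9333 CPM in knockouts 1 to 3. In such bulk samples fewer cells of a type and less RNA per cell cannot be told apart.

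IL-6 family cytokines signal through gp130, which cannot bind most of them alone. IL-6 and IL-11 first bind their own receptors, encoded by Il6ra and Il11ra1, and then assemble gp130 homodimers, while leukaemia inhibitory factor (Lif), oncostatin M (Osm) and cardiotrophin-like cytokine factor 1 (Clcf1) use gp130 paired with the receptors encoded by Lifr or Osmr. Janus kinases bound to these chains phosphorylate STAT3, which switches on Socs3 and other genes, and Socs3 in turn dampens the receptor. In bone, cells of the osteoblast lineage respond to these cytokines, macrophages are a source of oncostatin M, and IL-11 and oncostatin M are known to act on both bone formation and osteoclast formation.

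The upstream sequences of 3 ligand genes are shown because these held the letters of an AP-1 site, the element bound by Fos and Jun proteins, and the level of Il11 and Lif among them differed between the groups in the libraries numbered 1 to 3. Sequences are those of RefSeq on GRCm38.p6, whose table matched 7 of the 9 members (all except Osm and Clcf1), and each runs 5′ to 3′ over the 250 bases before an annotated start, with the match in capitals. The Il6 stretch is chr5:30012864-30013113 on the plus strand, the Il11 stretch, before the inner of 2 annotated starts, chr7:4778142-4778391 on the minus strand, and the Lif stretch chr11:4257318-4257567 on the plus strand.
Il6: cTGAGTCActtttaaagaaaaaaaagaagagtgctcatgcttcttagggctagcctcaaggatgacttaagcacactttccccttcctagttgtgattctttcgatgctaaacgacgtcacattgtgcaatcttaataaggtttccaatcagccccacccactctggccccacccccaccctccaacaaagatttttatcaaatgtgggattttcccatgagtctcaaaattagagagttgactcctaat
Il11: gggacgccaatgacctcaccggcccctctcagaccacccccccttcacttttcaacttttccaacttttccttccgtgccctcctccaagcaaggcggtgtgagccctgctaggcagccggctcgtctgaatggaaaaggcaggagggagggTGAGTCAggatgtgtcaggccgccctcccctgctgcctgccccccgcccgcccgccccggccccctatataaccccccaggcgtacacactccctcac
Lif: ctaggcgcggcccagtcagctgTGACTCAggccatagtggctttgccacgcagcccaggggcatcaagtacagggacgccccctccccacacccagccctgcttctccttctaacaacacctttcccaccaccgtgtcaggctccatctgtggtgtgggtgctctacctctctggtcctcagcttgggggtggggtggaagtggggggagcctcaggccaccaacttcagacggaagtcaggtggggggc

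The search covered 250 bases before to 50 bases after each start on both strands, for TGACTCA or TGAGTCA (AP-1; each is the reverse complement of the other), TTCNNNGAA (STAT) and TGACGTCA (the cyclic AMP response element). AP-1 letters lay at −249 to −243 of Il6, −98 to −92 of Il11 and −228 to −222 of Lif, counted from the start. Of all 32851 promoters in the table, 5.2% held the AP-1 letters, 8.3% the STAT letters and 1.79% the response element, and neither of the latter was found in the windows of the 7 members. A match is a description of the letters only.

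Il11 encodes IL-11, and it showed the widest difference of the ligands. The gene lies on GRCm38 at chr7:4772373-4782859, minus strand. It stood at 4.97, 5.17, 7.45 and 1.33 CPM in controls 1 to 4, from 94, 92, 128 and 19 counts. In the knockouts with the same numbers it stood at 1.12, 0.598, 0.945 and 0.874 CPM, from 18, 11, 17 and 12 counts. All 4 knockouts lay below all 4 controls, although control 4 was nearer to the knockouts than to the other controls. Il11 was the only tested member whose groups of 4 did not overlap, while 1.27% of all tested genes were lower and 2.32% higher in the knockouts without overlap.

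Controls averaged 4.73 ± 2.53 CPM (SD, n = 4) and knockouts 0.883 ± 0.216 CPM (SD, n = 4), and the log2 fold change came to −2.42 (SE 0.51). Over all 12837 genes this did not pass (edgeR adjusted p = 0.471), while DESeq2 gave an adjusted p of 0.00175. With the library number as a block it was −2.31 with an SE of 0.42 and an adjusted p of 0.0496, just under the threshold of 0.05, and the call was lost without number 1, 2 or 3 (0.217, 0.261 and 0.337). Within the 6 libraries numbered 1 to 3 alone it was −2.72 with an SE of 0.30 (edgeR adjusted p = 0.0007), a 6.62-fold difference of means, and it passed whichever of those 6 libraries was left out. Without control 4 the adjusted p in the remaining 7 libraries was 0.0273.

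Lif encodes leukaemia inhibitory factor and lies at chr11:4257557-4272514, plus strand. It stood at 17.5, 20.6, 17.9 and 16.0 CPM across controls 1 to 4, against 10.2, 9.29, 11.9 and 22.4 CPM in knockouts 1 to 4. Knockouts 1 to 3 lay below every control, whereas knockout 4 was the highest of the 8 libraries. With all 8 the log2 fold change came to −0.42 (SE 0.29) and was not called in either model. Among numbers 1 to 3 controls averaged 18.7 ± 1.70 CPM (SD, n = 3) and knockouts 10.5 ± 1.32 CPM (SD, n = 3). The log2 fold change there came to −0.83 (SE 0.13, edgeR adjusted p = 0.00331), and it passed whichever of the 6 libraries was left out.

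Clcf1 encodes cardiotrophin-like cytokine factor 1 and lies at chr19:4214238-4223490, plus strand. Its levels were 15.03, 16.9, 15.6 and 4.62 CPM across controls 1 to 4, against 7.32, 11.2, 12.2 and 6.70 CPM in knockouts 1 to 4. Among numbers 1 to 3 each knockout lay below each control, and in number 4 the order was the opposite. The log2 fold change came to −0.48 (SE 0.41) over all 8 and −0.62 with an SE of 0.18 in numbers 1 to 3 (edgeR adjusted p = 0.0491). That call was lost when any of the 6 libraries was left out, with adjusted p of 0.055 to 0.137. With the block in the same 6 libraries it was −0.64 (edgeR adjusted p = 0.00786), and leaving out any number kept it (0.0123, 0.0408 and 0.0386). Each fit without a number held few libraries, so its p-value drew heavily on the spread of other genes.

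Osm encodes oncostatin M and lies at chr11:4236420-4241026, plus strand, upstream of Lif on the same chromosome. It stood at 20.2, 16.9, 18.6 and 14.3 CPM across controls 1 to 4, against 16.1, 14.7, 16.2 and 20.8 CPM in knockouts 1 to 4, so the groups overlapped widely. The log2 fold change was −0.05, with a 95% interval of −0.43 to 0.34. In numbers 1 to 3 it was −0.24 with an SE of 0.10 and did not pass (edgeR adjusted p = 0.155).

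Il6 itself was close to the limit of detection. It lies at chr5:30013114-30019981, plus strand, and had 8, 6, 0 and 16 counts in controls 1 to 4 and 3, 3, 2 and 17 counts in knockouts 1 to 4. The 0 in control 3 allows up to 3 counts, or 0.175 CPM. The libraries numbered 4 were the highest of each group, at 1.12 and 1.24 CPM against at most 0.423 CPM elsewhere, and Il6 did not enter the fit. Without a filter on low counts its log2 fold change came to −0.15 (SE 1.10), which decides no direction.

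**Figure D1:**
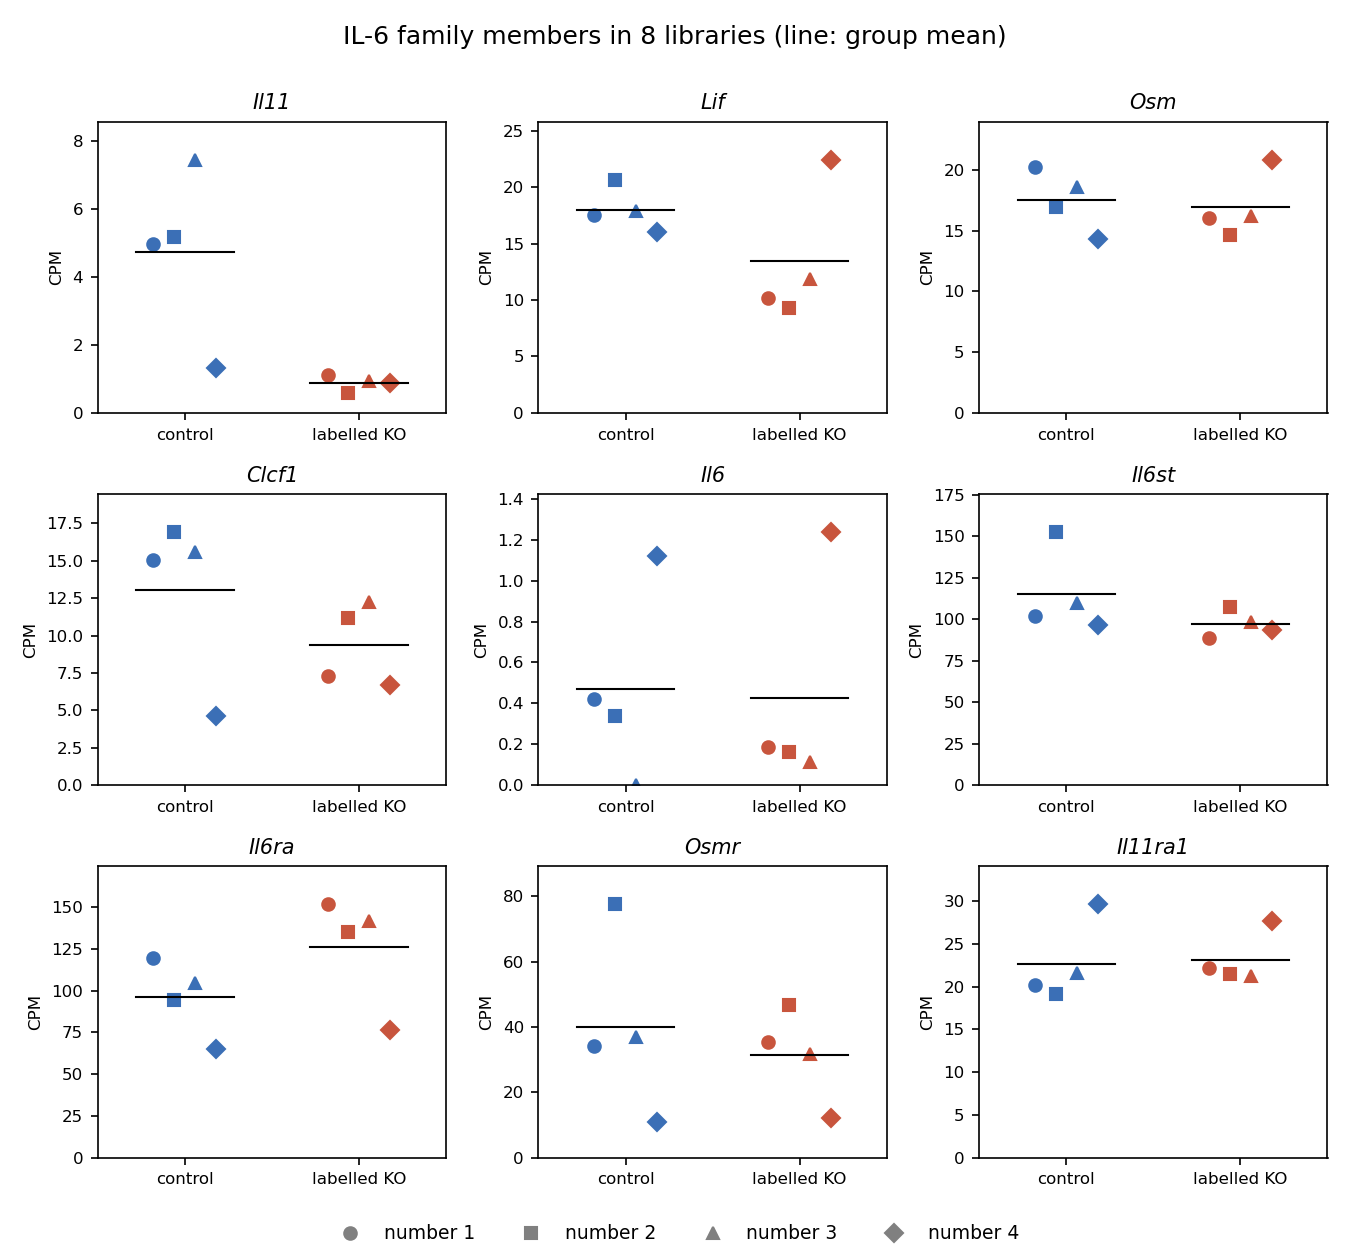
CPM of each of the 9 members (vertical axis, from 0, scaled per gene) in the 4 control and 4 knockout-labelled libraries, with the marker shape giving the library number and the line the group mean. Il11 is at 0.598 to 1.12 CPM in the 4 knockouts and 1.33 to 7.45 CPM in controls, and the diamonds of number 4 lie apart for most members.

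The common receptor Il6st lies at chr13:112464070-112510086, plus strand. It stood at 102, 153, 110 and 96.7 CPM across controls 1 to 4, against 89.0, 107, 98.6 and 93.7 CPM in knockouts 1 to 4. Each knockout was below its same-numbered control, with ratios of 0.874, 0.703, 0.900 and 0.969, but the groups overlapped and control 2 stood well above the rest. The log2 fold change came to −0.25 (SE 0.16), and it passed only in numbers 1 to 3 with the block (−0.28, SE 0.07, edgeR adjusted p = 0.0218). That call in turn was lost when number 2 or 3 was left out (adjusted p = 0.0721 and 0.0716).

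Il6ra, the receptor that binds IL-6 and is made mainly by myeloid cells and hepatocytes, was the only member with a higher level in the knockout of all 4 numbered pairs. It lies at chr3:89864059-89913196, minus strand. It stood at 119, 94.4, 105 and 65.2 CPM across controls 1 to 4, against 152, 135, 142 and 76.3 CPM in knockouts 1 to 4, with ratios of 1.27, 1.43, 1.35 and 1.17. Of all tested genes 15.4% were higher in 4 of 4 pairs and 13.4% lower, the latter including Il11 and Il6st.

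The log2 fold change of Il6ra was 0.40 with an SE of 0.26 over all 8 libraries and did not pass. It was 0.38 with an SE of 0.07 with the block (edgeR adjusted p = 0.0433), a call lost without number 1, 2 or 3 (0.216, 0.253 and 0.337). Among numbers 1 to 3 it was 0.43 with an SE of 0.09 (0.0148), and of the 6 libraries leaving out control 3, knockout 1 or knockout 3 ended the call, with adjusted p of 0.0752, 0.07 and 0.0711. With the block in those 6 it passed, also without any number (0.000313, and 2.97e-08, 0.00228 and 0.0212 without number 1, 2 and 3). Within those 6 libraries, each fit without a number rested on 2 libraries per group, so its p-value drew heavily on the spread of other genes. Csf1r, the macrophage colony-stimulating factor receptor, stood at 3856, 2932 and 3747 CPM across controls 1 to 3, against 3937, 3549 and 3769 CPM in knockouts 1 to 3. The 15 macrophage markers summed to 39620, 29930 and 38700 CPM and to 33140, 29840 and 32470 CPM in the same libraries, and Lyz2, which encodes lysozyme, made up 24430, 17740 and 24400 CPM and 18890, 16420 and 18760 CPM of it. Of the 15, Mrc1, Mertk and Ccr2 were called higher and Itgam and Cd14 lower in the knockouts numbered 1 to 3. In that fit 7.78% of all genes were called higher and 6.29% lower. The part of macrophage content in the Il6ra difference was not tested.

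Osmr, the oncostatin M receptor chain, lies at chr15:6813577-6874969, minus strand. It stood at 34.2, 77.5, 37.0 and 10.9 CPM across controls 1 to 4, against 35.4, 46.6, 31.6 and 12.2 CPM in knockouts 1 to 4. It was lowest in the libraries numbered 4 and highest in number 2 of each group, and the groups overlapped. Its log2 fold change of −0.34 had a 95% interval of −1.70 to 1.01, and without control 2 the value was 0.20 with an SE of 0.56. A fit of numbers 2 and 3 alone with the block called it lower (−0.49, SE 0.09, edgeR adjusted p = 1.32e-06). The same fit of numbers 1 and 3 gave −0.08. Each of these fits rested on 2 libraries per group, so its p-value drew heavily on the spread of other genes.

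Il11ra1, which encodes the IL-11 receptor, had the fold change nearest to 0 of the 8 tested members over all libraries. It lies at chr4:41699989-41769474, plus strand, and stood at 20.2, 19.2, 21.6 and 29.7 CPM across controls 1 to 4, against 22.1, 21.5, 21.2 and 27.7 CPM in knockouts 1 to 4. The libraries numbered 4 were the highest of both groups. The log2 fold change was 0.03, with a 95% interval of −0.37 to 0.44, and 0.09 (SE 0.08) in numbers 1 to 3. That of its ligand Il11 was −2.42 (SE 0.51, edgeR adjusted p = 0.471) and −2.72 (SE 0.30) in the same 2 fits. The Il11ra1 count is uncertain, because 60% of the 50-base words of its longest transcript also occur in Gm13305 and 24.1% in Il11ra2. Both copies are listed with 0 counts in every library. Exons of Il11ra1 also overlap Ccl27a on the opposite strand, those of Il6ra overlap Gm42809 on the opposite strand and those of Clcf1 overlap AC109138.7 on the same strand. For Il6, Lif, Osm, Il6st and Osmr 0 such words were shared with another gene, and 3.4% were for Il11.

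Taking the members as a set, the fit of all 8 libraries called 0 of 8 higher and 0 lower, where 0% of all genes were called either way. At an unadjusted p under 0.05 stood 1 member, Il11, and 631 genes in all, while DESeq2 called 1 member, Il11, and 0.382% of all genes lower (0.989% higher, 1.37% either way), and limma-voom called 0. With the number as a block 1 member was lower and 1 higher, against 1.18% and 1.31% of all genes, or 2.49% either way. Within the 6 libraries numbered 1 to 3 the lower members were Il11, Lif and Clcf1 and the higher member Il6ra, against 6.29% and 7.78% of all genes, or 14.1% either way. With the block there Il6st joined the lower ones, making 4, against 11.9% lower and 12.3% higher, or 24.2% either way. In numbers 1 to 3, 4 members (Il11, Lif, Osm and Clcf1) were lower and 1 (Il6ra) higher without overlap of the groups, where 16.4% and 18.2% of all genes were. The median log2 fold change of the 8 members was −0.30 over all libraries and −0.34 in numbers 1 to 3, beside −0.02 and −0.01 over all genes. Because the choice of the members used this contrast, nothing is read from these shares.

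**Figure D2:**
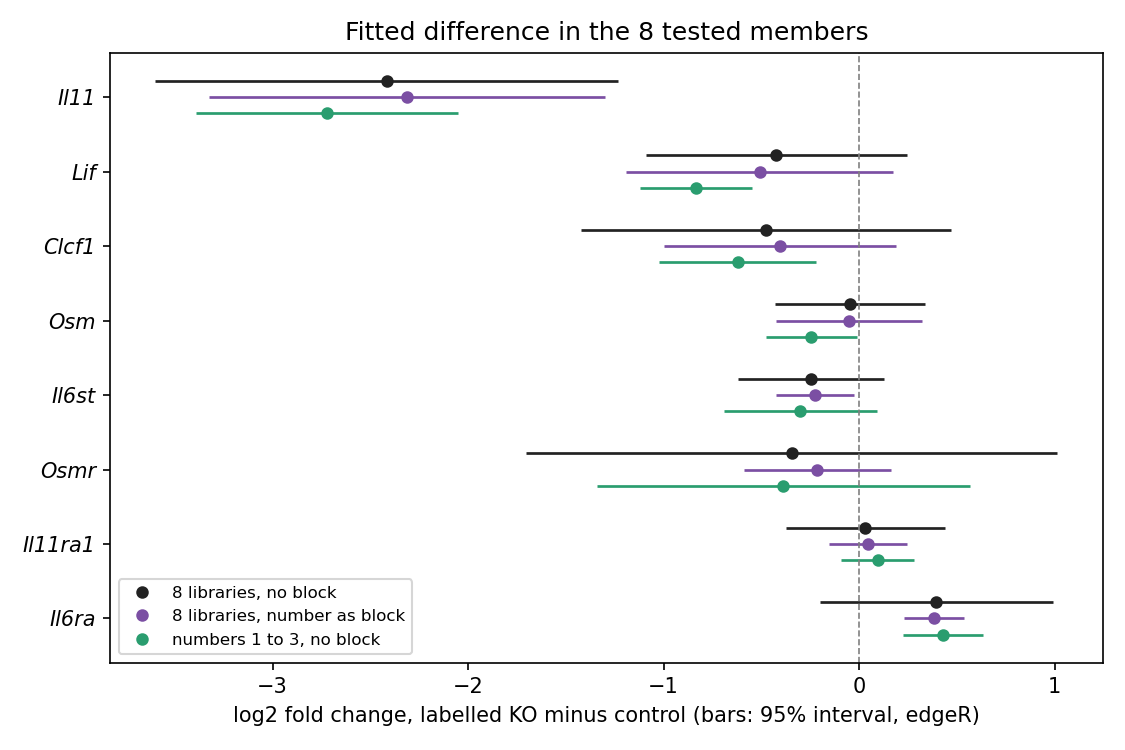
Fitted log2 fold change of knockout-labelled minus control libraries (horizontal axis) for the 8 tested members, with 95% intervals, from edgeR on all 8 libraries, with the number as a block and on numbers 1 to 3 alone. Il11 is at −2.42, −2.31 and −2.72 in the 3 fits, the interval of Lif lies below 0 only in numbers 1 to 3, and that of Il11ra1 holds 0 in each.

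To compare the genes with one another, CPM was divided by the length of all exons joined. Per kb, the control levels were 11.1 ± 2.65 for Il6ra, 10.4 ± 2.30 for Il6st, 7.71 ± 1.10 for Osm, 5.06 ± 1.07 for Il11ra1, 4.14 ± 0.44 for Lif, 3.42 ± 1.49 for Clcf1, 3.29 ± 2.28 for Osmr, 2.27 ± 1.22 for Il11 and 0.194 ± 0.193 for Il6 (CPM per kb, SD, n = 4 each). Il6ra and Il6st thus took the top of the order and Il6 the bottom, while Osm stood above Il11ra1, and Osmr below Lif and Clcf1. Of the 8 neighbouring pairs in this order, 7 had overlapping control ranges, and only Il11, at 0.638 CPM per kb or more, and Il6, at 0.461 or less, did not overlap. In the knockouts Il11 stood at 0.424 ± 0.104 CPM per kb (SD, n = 4). The order depended on the gene model: by the longest transcript Il6st stood first at 13.3, ahead of Il6ra, Il11ra1 rose to 8.69 and passed Osm, and Osmr rose to 7.27 and passed Lif and Clcf1.

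Osm was the ligand with most reads per kb in every library, with 38.7% to 59.2% of the sum of the 5 ligands. Il11 made up 12.3%, 12.9% and 17.95% of that sum in controls 1 to 3 and 4.49%, 2.42% and 3.34% in knockouts 1 to 3. In the libraries numbered 4 its share was 5.19% and 2.47%. The ligand sum was 19.4, 19.3 and 20.0 CPM per kb in controls 1 to 3, 11.95, 11.9 and 13.6 in knockouts 1 to 3, and 12.3 and 17.0 in control 4 and knockout 4. The sum of the 4 receptor chains was 30.3, 35.4 and 29.9 in controls 1 to 3 and 33.5, 34.0 and 32.6 in knockouts 1 to 3, and it was 23.8 and 24.5 in number 4. Within the receptor sum the means of controls and knockouts were 11.1 and 14.6 for Il6ra, 10.4 and 8.76 for Il6st and 3.29 and 2.59 for Osmr, and the ligand and receptor sums were not tested against each other.

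**Figure D3:**
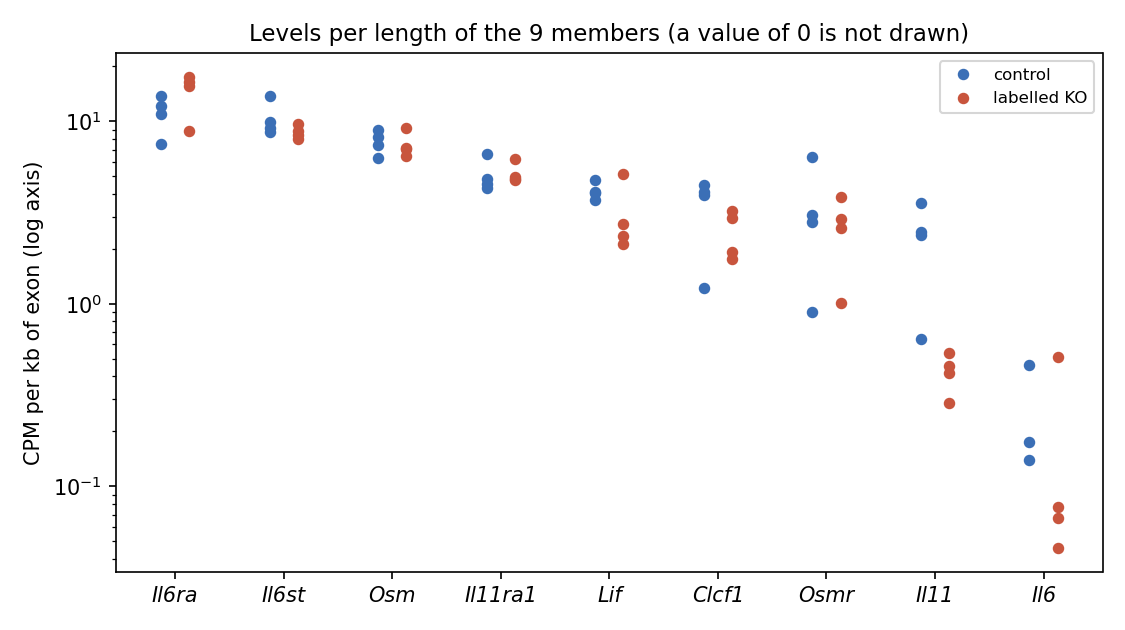
CPM per kb of exon (logarithmic vertical axis) of the 9 members, ordered by their control mean, with 1 point per library. The means of controls run from 11.1 for Il6ra to 0.194 for Il6, the control points of neighbours overlap except for Il11 and Il6, and the single 0 of Il6 in control 3 is not drawn.

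The stromal marker sum was lower in knockouts 1 to 3 than in controls 1 to 3 without overlap. Correlations of the members with this sum were not computed. Fn1, the fibronectin gene, made up 66.6% to 87.4% of that sum. Of its 8 tested markers only Fn1 was called lower in numbers 1 to 3, and with the block Pdgfrb, Thy1 and Acta2 joined it. Over all genes 6.29% were called lower there, and 11.9% with the block. Postn made up 1.24%, 2.47% and 1.93% of the sum in controls 1 to 3 and 7.01%, 3.42% and 3.93% in knockouts 1 to 3. Prrx1, a transcription factor of limb and skull mesenchyme, stood at 122.6, 192 and 145 CPM across controls 1 to 3, against 118, 147 and 132 CPM in knockouts 1 to 3. Per 10000 CPM of stromal markers Il11 stood at 4.01, 3.02 and 5.74 CPM across controls 1 to 3, against 1.35, 0.551 and 1.01 CPM in knockouts 1 to 3, and at 4.33 CPM in control 4 and 3.05 CPM in knockout 4. Its groups did not overlap on this scale among numbers 1 to 3, but with number 4 they did. Lif (14.1, 12.1 and 13.8 against 12.3, 8.56 and 12.7) and Clcf1 (12.1, 9.90 and 11.97 against 8.84, 10.3 and 13.1) overlapped on it in numbers 1 to 3. In control 4 and knockout 4 Lif stood far higher, at 52.16 and 78.15, and Clcf1 at 15.03 and 23.34. Il6st was higher in knockouts 1 to 3 on this scale without overlap (82.1, 89.3 and 84.4 against 107.5, 99.0 and 105.7). The divisor itself was lower in those knockouts, and without it the log2 fold change of Il6st in numbers 1 to 3 was −0.30 (SE 0.16). In control 4 and knockout 4 Il6st stood at 315 and 326.6 on this scale. The share of all genes without overlap on this scale was not computed. Osmr stood at 27.6 to 45.3 CPM per 10000 in all 8 libraries, a narrower range than its own CPM. The part of cell composition in the differences of Il11, Lif and Clcf1 was not tested.

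**Figure D4:**
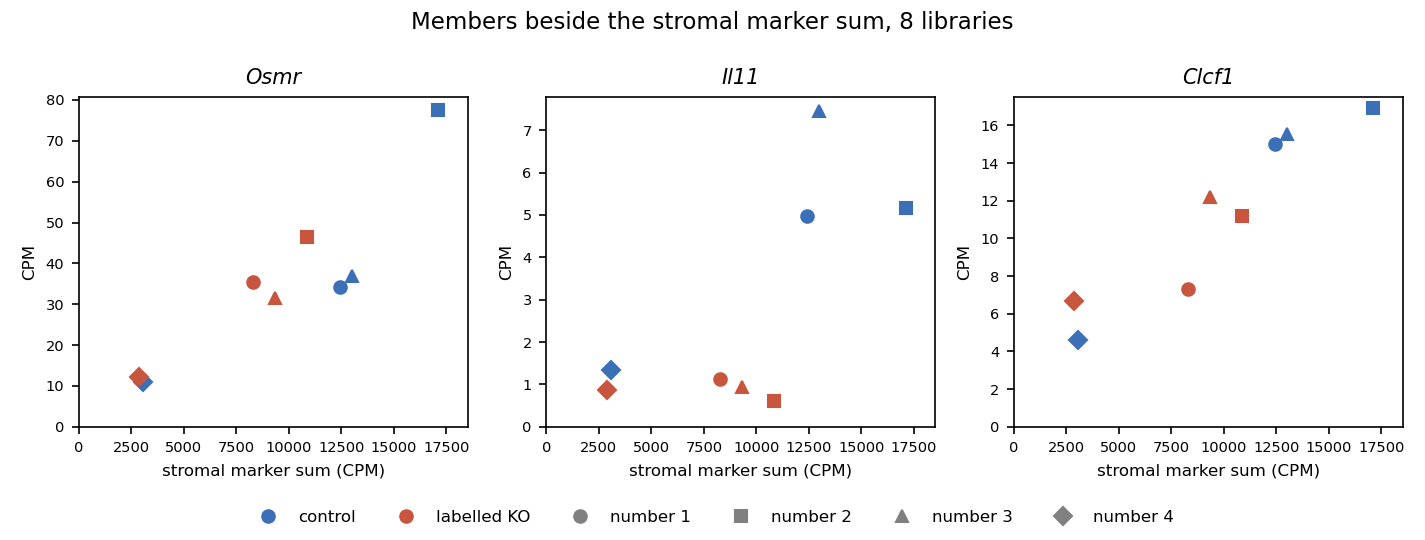
CPM of Osmr, Il11 and Clcf1 (vertical axes, from 0) against the summed CPM of 10 fibroblast and stromal markers (horizontal axis) in 8 libraries, with colour for genotype label and shape for number. Osmr is low where the sum is low, at 10.9 and 12.2 CPM in number 4. Il11 is at 0.598 to 1.12 CPM in knockouts 1 to 3, at sums of 8278 to 10850 CPM. In control 4 it is at 1.33 CPM, at a sum of 3070 CPM. Controls 1 to 3 have sums of 12410 to 17100 CPM, which no knockout reaches. The part of the sum in the Il11 level was not tested.

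Among other ligands of the family, Ebi3 (log2 fold change 0.14, SE 0.28) and Il27 (0.31, SE 0.25), the chains of interleukin-27, did not pass. Cntf reached 6 counts and Ctf1 9 counts in their highest library, and Ctf2 and Il31 were at 0.

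Of 5 other receptor chains only Lifr was tested. It encodes the receptor chain that pairs with gp130 for Lif, and stood at 13.2, 25.2, 19.5 and 7.69 CPM across controls 1 to 4, against 72.6, 23.6, 22.8 and 5.61 CPM in knockouts 1 to 4. Knockout 1 stood above the rest, and it was also the library with the osteocalcin genes Bglap and Bglap2, markers of late osteoblasts, at 42.3 and 40.7 CPM against at most 0.582 and 0.979 CPM elsewhere. The part of such cells in its Lifr level was not tested. Its log2 fold change of 0.93 had an SE of 0.70 and did not pass. Cntfr reached 12, Il27ra 28 and Il31ra 2 counts in their highest library, and Il11ra2 was at 0.

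Of the genes that carry the signal from the receptors, all 18 were tested and 0 passed over the 8 libraries in either model, with a median log2 fold change of 0.05. Stat3 itself stood at 156 to 159 CPM in controls 1 to 3 and 154 to 162 CPM in knockouts 1 to 3, and at 242 and 271 CPM in number 4. Its log2 fold change in numbers 1 to 3 was 0.00 with an SE of 0.05. The 4 with the smallest unadjusted p were Hras (−0.19, SE 0.12), the adaptors Gab2 (0.15, SE 0.10) and Gab1 (0.12, SE 0.11), and the kinase Jak1 (0.15, SE 0.13). Within the 6 libraries numbered 1 to 3 the adaptor Grb2 rose (0.25, SE 0.07, edgeR adjusted p = 0.0426), a call kept in 1 of the 6 fits without a library, and 17 did not pass. With all 6 of those libraries 7.78% of all genes rose and 6.29% fell.

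Of 10 negative regulators 0 passed over the 8 libraries in either model. Among numbers 1 to 3, 2 fell, Socs2 (−0.87, SE 0.22) and Socs3 (−0.47, SE 0.11, edgeR adjusted p = 0.0257), and 8 did not pass. In that fit 6.29% of all genes fell and 7.78% rose. Socs3, named after its values were seen, is the feedback inhibitor that binds gp130. It stood at 19.6, 24.8 and 20.6 CPM across controls 1 to 3 and at 16.4 CPM or less in knockouts 1 to 3, while control 4 and knockout 4 were at 132 and 128 CPM. The call was kept in 2 of the 6 fits without a library. The phosphatase Ptpn1 (0.23, SE 0.12), Cish (−0.45, SE 0.38) and Pias1 (0.11, SE 0.14) did not pass over all 8 libraries. With the block in numbers 1 to 3 Ptpn1 rose and Cish fell, where 12.3% of all genes rose and 11.9% fell.

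Of 26 genes listed as STAT3 targets, 24 were tested, and with all 8 libraries 0 passed and 9 were positive, with a median of −0.21 beside −0.02 over all genes. With the block 1 fell, Myc, the growth-promoting transcription factor (−0.65, SE 0.07, edgeR adjusted p = 0.0328). In numbers 1 to 3, 15 fell, 1 rose and 8 did not pass, with a median of −0.42, where 6.29% of all genes fell. Leaving out any of the 6 libraries gave 9 to 15 that fell. In number 4, Fos, Junb, Cebpb, Cebpd, Pim1, Pim3, Bcl2l1, Saa3, Tnfsf11 and Vegfa of the 15 stood higher in the knockout. There Socs3, Myc and Timp1 stood lower, and Fosl2 and Ier3 are not given. Fos, for example, was at 490.6 CPM in control 4 and 571.5 CPM in knockout 4. The list was chosen with earlier results of these data known, so nothing is read from the share that fell. Fos, Junb, Myc and Ier3 among those that fell are immediate early genes that many signals other than STAT3 induce, and Socs3 stands on both lists.

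The kinase gene Pim1 stood at 67.5, 65.4, 63.1 and 65.0 CPM across controls 1 to 4, against 26.0, 26.6, 31.7 and 91.6 CPM in knockouts 1 to 4. Like Lif, it was below every control in knockouts 1 to 3 and highest of all in knockout 4. Among numbers 1 to 3 its log2 fold change came to −1.22 (SE 0.09, edgeR adjusted p = 0.00019). Others that fell there were Pim3 (−0.71, SE 0.11), the metalloproteinase inhibitor Timp1 (−0.62, SE 0.10) and the transcription factor Cebpd (−0.64, SE 0.12). The acute-phase gene Lbp rose (1.23, SE 0.29, edgeR adjusted p = 0.0228), a call kept in 3 of 6 fits without a library. Tnfsf11 (RANKL) is the osteoclast-inducing ligand that gp130 cytokines raise in osteoblasts. It stood at 3.92, 7.14 and 4.83 CPM across controls 1 to 3, against 0.930, 2.23 and 1.72 CPM in knockouts 1 to 3 (−1.68, SE 0.34, edgeR adjusted p = 0.0136). In number 4 the order was the opposite, at 0.490 CPM in control 4 and 1.09 CPM in knockout 4. Over all 8 libraries Tnfsf11 did not pass without the block (−1.45, SE 0.685) or with it (−1.27, edgeR adjusted p = 0.204). Lbp, Tnfsf11 and the immediate early genes were picked for naming after their values were seen.

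**Figure D5:**
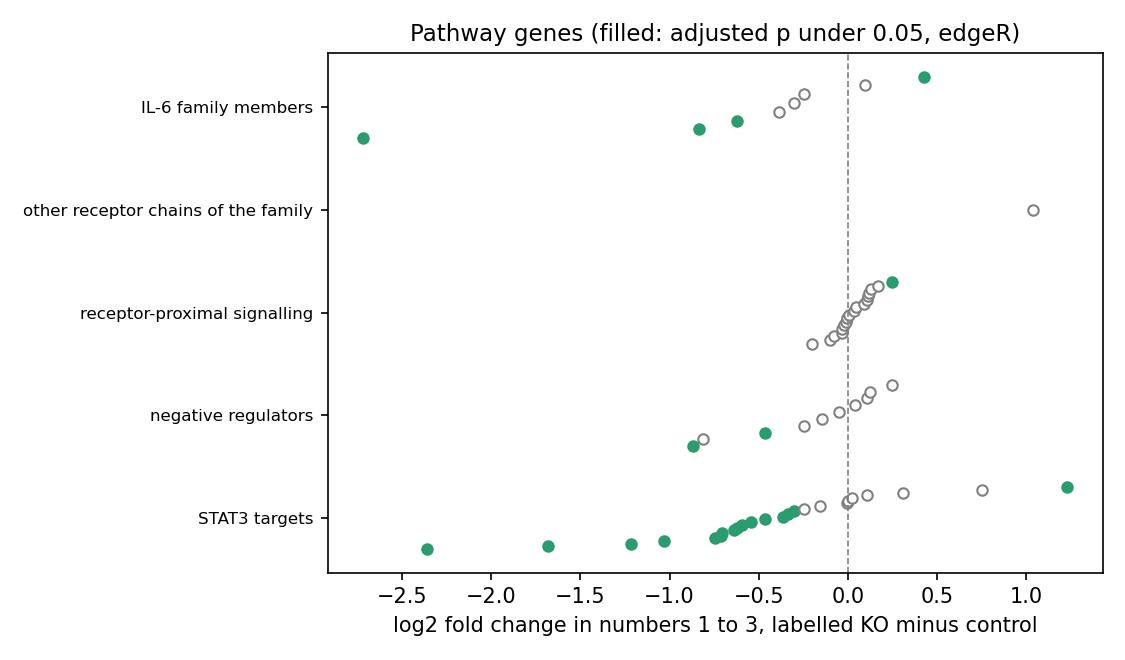
Log2 fold change in numbers 1 to 3 (horizontal axis) for every tested gene of 5 lists, 1 point per gene, filled where the edgeR adjusted p over all genes was under 0.05. Of the 24 STAT3 targets 15 are filled on the lower side and 1 on the higher, while of the 18 signalling genes 1 is filled. Over all genes 6.29% were called lower and 7.78% higher in this fit. The lists were chosen with earlier results of these data known.

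Across all 8 libraries, the 3 genes of 11525 compared whose log2 CPM was most like that of Il11 were Fam220a (Pearson r = 0.993), Inafm2 (0.980) and Hdac11 (0.967), with 0.995, 0.990 and 0.975 over the 6 libraries of numbers 1 to 3. Fam220a stood at 20.9, 21.1, 21.4 and 16.3 CPM in controls and 15.9, 14.6, 15.4 and 15.9 CPM in knockouts. For Lif they were Sike1 (0.975), Pim1 (0.971) and Coq2 (0.965), for Il6st Csrp1 (0.971), Slc6a17 (0.960) and Tpm4 (0.954), and for Osmr Fam114a1 (0.997), Aspn (0.995) and Igdcc4 (0.993). Csrp1 and Tpm4 encode proteins of the actin cytoskeleton and Aspn the matrix proteoglycan asporin. These values are descriptions over libraries that share their number 4 outliers, and they were the highest picked from many genes. Among the members themselves Osmr and Il11ra1 ran most opposite over 8 libraries (r = −0.948), and Lif and Il11 most alike in numbers 1 to 3 (0.950 over 6 libraries, 0.574 over 8).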

How the data were processed

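Polyadenylated RNA was sequenced in 8 libraries, 4 per group, grouped by sample title. The authors deposited raw read counts, 1 row for each gene symbol. STAR 2.7.11b, featureCounts 2 and the build GRCm38 (mm10) are named in the submitters' processing notes; annotation, strand use and treatment of multiply aligned reads are not given in the sources used here. Counts were compared with edgeR 4.0.16 in R 4.3.3 (filterByExpr, TMM scaling, robust quasi-likelihood F test, Benjamini-Hochberg adjustment over all tested genes, threshold 0.05, model of genotype alone). DESeq2 1.42.0 and limma-voom (limma 3.58.1) were alternatives. Log2 CPM used a prior count of 2. Depth of 14347495 to 19065421 counts limits genes such as Il6. The code was tested on simulated counts. Gene coordinates, exon lengths and shared 50-base words came from GENCODE M21.

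Over all 8 libraries same-numbered libraries deviated together (r of 0.46 to 0.829), but so did unlike numbers among 1 to 3 (0.416 to 0.572). Control 2 with knockout 1 (0.511) even exceeded control 1 with knockout 1 (0.46). Unlike numbers that included number 4 gave −0.757 to −0.569. In numbers 1 to 3 alone, same numbers gave 0.161 to 0.376 and unlike numbers −0.255 to −0.023. Numbers were taken as pairs from these data and not from a label.

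Members and lists were chosen with earlier results of these data known. Named are the 9 members, per list up to 4 tested genes of smallest unadjusted p and any past the threshold with all 8 libraries, and 3 genes most like Il11, Lif, Il6st and Osmr (mean log2 CPM of at least 1). Some genes that this rule or the marker lists hold are not reported here.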

Additional observations from a re-analysis of the deposited data

Results flagged for a closer look

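In 3 of 18 sets of 4 libraries (9 members, each in both groups), the highest or lowest library lay so far from the others that its gap to the nearest exceeded Dixon's 95% critical share of the whole range, which chance gives in about 1 in 20 sets. Il6 stood at 1.24 CPM in knockout 4 against 0.111 to 0.186 CPM in knockouts 1 to 3. Clcf1 stood at 4.62 CPM in control 4 against 15.03 to 16.9 CPM in controls 1 to 3. Il11ra1 stood at 27.7 CPM in knockout 4 against 21.2 to 22.1 CPM in knockouts 1 to 3. All 3 are libraries numbered 4, which carried the osteoclast markers, and the part of those cells in the values was not tested.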

How the results depend on the processing

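The fit of all 8 libraries called 0 genes and 0 members, and the counts moved with the libraries and the model. Genes higher and lower were 127 and 49 with DESeq2, 168 and 151 with the replicate block, 1005 and 812 in numbers 1 to 3, and 1593 and 1539 there with the block. Leaving out single libraries of the 8 gave 0 to 25 higher and 0 to 13 lower, with calls only without control 4 (25 and 13) or knockout 4 (17 and 7). The block without number 1, 2 or 3 gave 0 and 0. Within numbers 1 to 3, an alternative added once the data had been seen, leaving out a library gave 455 to 1131 higher and 383 to 986 lower, and with the block, leaving out a number, 556, 1337 and 1524 higher and 652, 1336 and 1557 lower. Members called lower were 1 with DESeq2, 1 with the block, 1 without control 4, 3 in numbers 1 to 3 and 4 there with the block, and members called higher were 1 with the block and 1 in numbers 1 to 3 with or without it. Leaving out libraries within numbers 1 to 3 gave 2 to 5 lower and 0 to 1 higher members. The block fits among these held few libraries, so their p-values drew heavily on the spread of other genes. The cause of these moves was not tested. TMM, DESeq2 size factors and total counts gave 0 calls each in edgeR, as did limma-voom and no filter on low counts.

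Signs turned for 3 members near 0. Osm, −0.05 with all libraries, ran from −0.306 (numbers 1 to 3 without control 2) to 0.04 (with the block, without number 1), with 0.028 without control 1, 0.014 without knockout 2 and 0.005 with the block without number 2. Il11ra1 ran from −0.065 (without knockout 4) to 0.185 (without control 4), with −0.02 without control 1 and −0.03 without control 2. Osmr ran from −0.659 (without control 4) to 0.203 (without control 2), and was 0.09 without control 2 in numbers 1 to 3. Il11, Lif, Clcf1, Il6st and Il6ra kept their direction in every fit run. By the longest transcript the control levels per kb were 13.3 for Il6st, 8.69 for Il11ra1 and 7.27 for Osmr.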

Other observations

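Of the 24 tested genes listed as STAT3 targets, 4 are given here for their values in the libraries numbered 4, which also carried 10100 and 6659 CPM of osteoclast markers against 141 to 234 CPM elsewhere. The part of those cells in the values was not tested. The acute-phase gene Saa3 stood at 775.5 and 807 CPM in control 4 and knockout 4 against 0.500 to 5.77 CPM in the other 6 libraries. Hp, the haptoglobin gene, stood at 101 and 113 CPM against 2.68 to 8.75 CPM, and Vegfa, the vascular growth factor, at 731 and 806 CPM against 94.1 to 133 CPM. Bcl2l1, which encodes an inhibitor of cell death, went the other way, at 16.2 and 21.6 CPM against 52.5 to 76.3 CPM. The 4 genes were picked with their values in view, and number 4 is a single library of each group.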
